A study of Mus musculus with 2 samples.

Results

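The genes described here are 8 members of the TNF receptor signalling family that costimulate lymphocytes: the receptors Tnfrsf4 (OX40), Tnfrsf9 (CD137), Tnfrsf18 (GITR), Tnfrsf25 (DR3), Tnfrsf1a (TNFR1), Tnfrsf1b (TNFR2) and Cd27, and the adaptor Traf1. They were taken by symbol from the feature table, and all 8 were found among its 31053 genes in both libraries. They were followed through cell classes in the lamina propria of the small intestine, from C57BL/6 animals that lacked Zfp36 (Zfp36-/-, the Zfp36_KO library) or were wild type (WT library). Live CD45+ lineage-negative cells without CD3 and TCRβ and with CD90.2 and CD127 were sorted, which is a gate for innate lymphoid cells (ILCs). Cells of 4 mice per genotype were pooled before droplet capture, so each genotype was 1 library with no replicate, and no test between genotypes was possible. The animals are given as Zfp36-/- and not as a deletion limited to a cell type, and their age is not given in the sources used here.

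Receptors of this family bind trimeric TNF-like ligands and pass the signal through TRAF adaptors to NF-kB and MAP kinases. On T cells they prolong survival and activation, and regulatory T cells are known for high OX40, GITR, CD137 and TNFR2. On ILCs, DR3 and GITR are known receptors for costimulation of cytokine release, and Tnfrsf1a is the TNF receptor with a death domain. Zfp36 encodes tristetraprolin, an RNA-binding protein that binds AU-rich stretches in 3′ untranslated regions (UTRs) and speeds decay of the mRNA; Tnf, the ligand of Tnfrsf1a and Tnfrsf1b, is its best-known target.

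The preferred tristetraprolin motif TATTTAT (on the sense strand) was searched in the longest annotated 3′ UTR of each gene of GENCODE M21 (GRCm38). None of the 8 genes held it, where 27.4% of the 21101 genes with a 3′ UTR did. Of the 13998 genes with a 3′ UTR inside the members' range of length (180 to 2324 bases), 21.3% did. The members' median was 589 bases against 1085 for all genes, and the range does not match lengths gene by gene. The shorter core ATTTA, which lies inside that motif, was found in 3 of the 8 genes, 7 times in all, against 65.6% of all genes and 63.2% of those in the members' length range. Those 7 places are shown because they are the nearest that the members came to an AU-rich element; the choice to show them was made after TATTTAT had no match. Capitals mark ATTTA, with 12 bases on each side, 5′ to 3′ on the gene's own strand, and the position counts from the first base of the 3′ UTR.
Tnfrsf9, chr4:150945049-150945077, + strand, position 191: atctttttttaaATTTAaattttatgtgt
Tnfrsf9, chr4:150945295-150945323, + strand, position 437: acagtttttaaaATTTAacttaatttttt
Tnfrsf1b, chr4:145213789-145213817, − strand, position 1982: tacctgcccgacATTTAcatgaatactag
Tnfrsf1b, chr4:145213694-145213722, − strand, position 2077: ctcccccttcctATTTAataagttagttt
Traf1, chr2:34943387-34943415, − strand, position 470: acattaatgtgaATTTAacctgccctgga
Traf1, chr2:34942894-34942922, − strand, position 963: cttccttccttcATTTAttccttccttcc
Traf1, chr2:34942094-34942122, − strand, position 1763: aacagacagatcATTTAtcttccagagaa
A match is a description of the annotated sequence and not a binding site. The other members, Tnfrsf4 (chr4:156013843-156016612), Tnfrsf18 (chr4:156026164-156028895), Tnfrsf25 (chr4:152115934-152120119), Tnfrsf1a (chr6:125349362-125362484) and Cd27 (chr6:125232622-125237010), held neither motif in 3′ UTRs of 180 to 688 bases. Chromosome 4 carries 5 of the 8 genes: Tnfrsf4, Tnfrsf9, Tnfrsf18, Tnfrsf25 and Tnfrsf1b.

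The Zfp36_KO library held 3522 barcodes with 27733804 UMIs (unique molecular identifiers, counted per molecule) and the WT library 3593 barcodes with 24721524 UMIs, of which 3334 and 3360 cells were kept. The libraries shared 2 barcodes. Zfp36 itself, the targeted gene, stood at 377 CPM in Zfp36_KO cells and 634 CPM in WT cells, where CPM scales a gene's UMIs to all UMIs of the cells summed. It was lower within classes too, with 318 and 727 CPM in Zfp36_KO and WT ILC2-like cells and 286 and 908 CPM in LTi-like cells. These are 3′ tags and the deleted part is not given in the labels, so the tags that remained neither bear out nor contradict the label. In the Zfp36_KO library 448 cells had a Y-linked UMI and no Xist UMI, against 0 cells in the WT library, so the pools also differed in sex.

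Cells were assigned to classes by the number of marker genes with a UMI. Zfp36_KO and WT cells numbered 167 and 188 in the ILC1/NK-like class, 1160 and 645 in the ILC2-like class, and 1001 and 900 in the ILC3-like class. The ILC3-like cells were split into LTi-like cells (392 and 357), NCR+ cells (286 and 379) and other ILC3-like cells (323 and 164). Myeloid-like cells numbered 375 and 89, with a median of 20382 and 10597 UMIs per cell. T-like cells, which the sort against CD3 and TCRβ would remove, numbered 49 (1.47% of kept cells) in the Zfp36_KO library and 1165 (34.7%) in the WT library. The WT library thus goes against its label as ILCs only. The Zfp36_KO library was not ILCs only either, with 11.2% myeloid-like and 4.65% B/plasma-like cells (2.65% and 3.15% in WT). Of the T-like cells, 1 Zfp36_KO cell and 119 WT cells had a Foxp3 UMI, and the WT ones carried other regulatory T cell genes (Ctla4 in 99.2% and Ikzf2 in 97.5% of cells). Of 7 listed regulatory T cell genes, with Foxp3 present by the gate, a median of 5 had a UMI per cell. The median was 1 in other T-like WT cells, of which 604 had a Ctla4 UMI. The few Zfp36_KO T-like cells lay near the limit of their gate (35 cells of any class at its minimum of 3 markers and 19 above it, against 99 and 1118 WT cells), and the 48 without Foxp3 carried more ILC2 and ILC3 marker RNA (644 and 1125 CPM) than the 1046 such WT cells (202 and 444 CPM). Ratios between the libraries were therefore made only for the ILC and myeloid classes, which had at least 50 cells in both, and T-like levels are those of the WT library. Intervals are exact, at 95%, and cover counting error only.

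**Figure D1:**
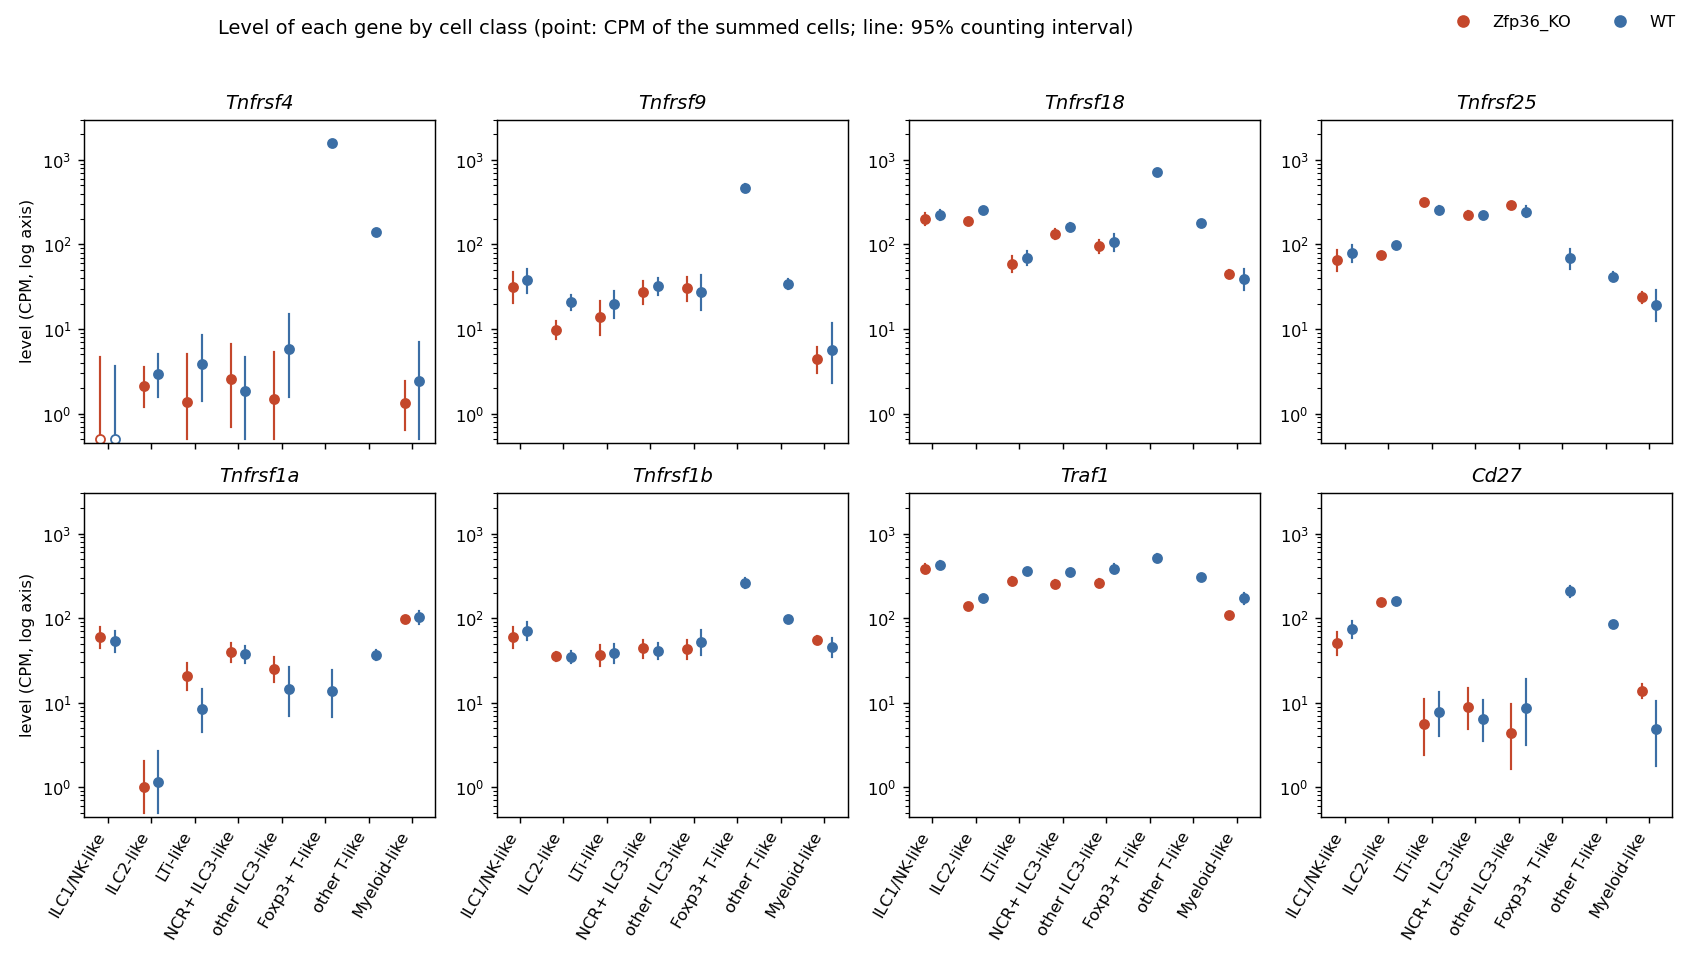
Level of each of the 8 genes (CPM, log axis) by cell class, with Zfp36_KO left of WT; points are summed cells, lines 95% Poisson intervals drawn down to the axis floor, open points 0 UMIs, and classes under 50 cells are left out. Tnfrsf4 stood at 1586 CPM in Foxp3+ T-like WT cells and under 6 CPM in each ILC and myeloid class, while Tnfrsf25 was highest in the ILC3-like subsets and Tnfrsf1a in myeloid-like cells.

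Tnfrsf4, which encodes OX40, was a T cell gene in these libraries and was close to absent from ILCs. It reached 1586 CPM (1500 to 1676) in Foxp3+ T-like WT cells and 140.4 CPM (131 to 150.3) in other T-like WT cells, a difference of 11.3-fold (10.3 to 12.4). In the ILC2-like class it had 15 UMIs in Zfp36_KO cells and 13 in WT cells, which are 2.13 and 2.97 CPM. In the pooled ILC3-like class it had 8 UMIs in Zfp36_KO cells and 14 in WT cells, and in ILC1/NK-like cells 0 UMIs in both, which by the limit of 3 cells of the total allows a share of up to 1.8% of Zfp36_KO and 1.6% of WT cells with a UMI. The ILC and myeloid levels, 0 to 5.80 CPM, had intervals that overlapped between neighbours in the order, and none reached the 50 UMIs over both libraries needed for a ratio.
Shares of cells were compared after each cell was thinned to 2000 UMIs. A Tnfrsf4 UMI was then present in 79.5% (71.0 to 86.4) of Foxp3+ T-like WT cells, 13.9% (11.9 to 16.2) of other T-like WT cells and 0 to 1.95% of the cells of every ILC and myeloid class. Without thinning the shares were 93.3% and 22.5% in the WT T-like classes, with 11.5 UMIs per positive Foxp3+ cell. Among T-like WT cells without a Foxp3 UMI, Tnfrsf4 stood at 203 CPM in the 604 cells with a Ctla4 UMI and at 48.8 CPM in the 442 without. By the presence of a Cd8a or Cd8b1 UMI it stood at 17.9 CPM in 163 cells with one and at 168 CPM in 883 cells without. Ctla4 encodes an inhibitory receptor of activated and regulatory T cells. Of these WT T-like groups, Tnfrsf4 was lowest in the Cd8-positive cells and highest where Foxp3 was found.
A Foxp3 gate on 1 UMI misses cells, so the Leiden cluster in which Foxp3+ cells were most common was read too. Its 130 WT cells, 102 of them gated Foxp3+ and 26 gated other T-like, had 2036 CPM of Tnfrsf4 (1930.4 to 2146), and its 1 Zfp36_KO cell had 0 UMIs.

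Over all kept cells, the Zfp36_KO library had 39 Tnfrsf4 UMIs (1.43 CPM) and the WT library 2287 (96.2 CPM), a 67.3-fold lower CPM. T-like cells held 91.5% of the WT UMIs. Without the T-like cells, 37 UMIs in 3285 Zfp36_KO cells and 194 UMIs in 2195 WT cells remained, an 8.25-fold lower CPM. Of those 194 WT UMIs, 147 lay in cells set aside as mixed (6.43% of all WT Tnfrsf4 UMIs), where Zfp36_KO cells had 0. The T-like share also bore on other members: these cells held 64.6% of the WT UMIs of Tnfrsf9, 58.0% of Tnfrsf1b, 42.3% of Tnfrsf18, 42.0% of Cd27, 40.0% of Tnfrsf1a, 38.1% of Traf1 and 14.5% of Tnfrsf25. Leaving the T-like cells out moved the members unequally: Traf1 was 1.73-fold lower in the Zfp36_KO library with them and 1.49-fold lower without, while Tnfrsf1a was 1.52-fold higher with them and 1.84-fold higher without. Every ratio that follows is within a class. T marker RNA inside the ILC classes was higher in the WT library too. In Zfp36_KO and WT cells it summed to 1458 and 2247 CPM in ILC2-like and 879 and 1244 CPM in ILC3-like cells. It was 1450 and 1982 CPM in ILC1/NK-like cells, and its part in the ratios was not tested.

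**Figure D2:**
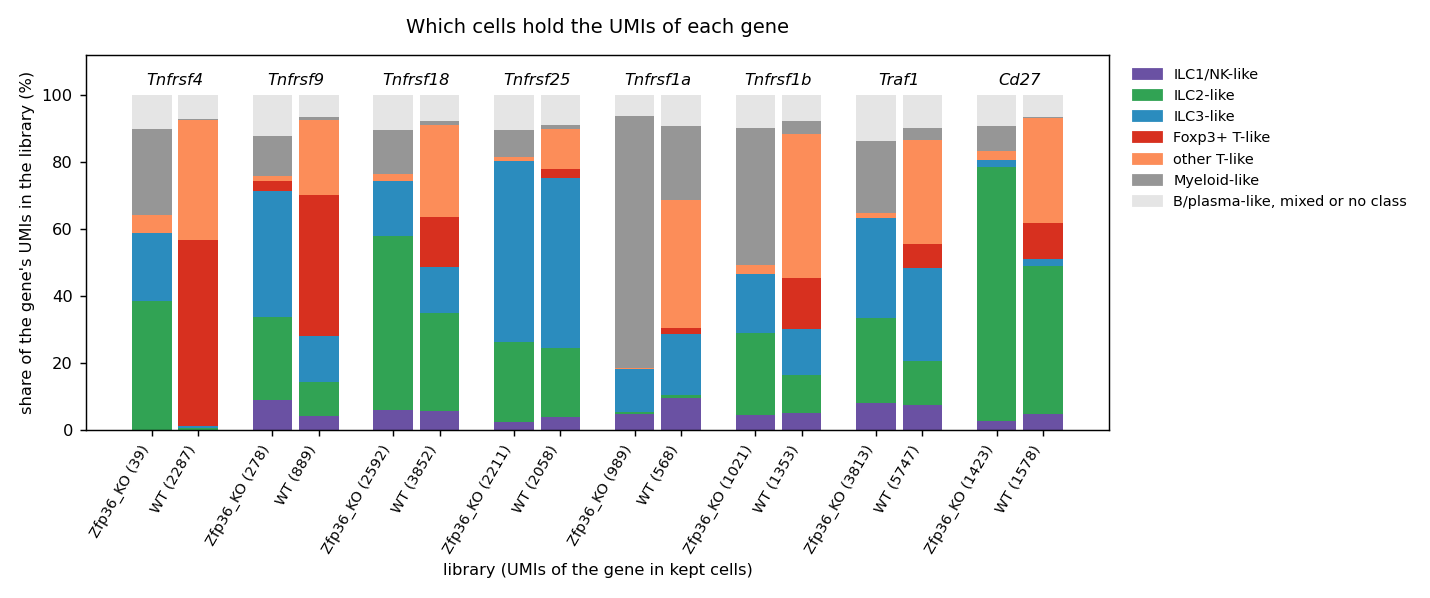
Share of each gene's UMIs (%) held by each cell class, per library, with Zfp36_KO left of WT and the number of UMIs in brackets. Foxp3+ and other T-like cells held 91.5% of Tnfrsf4 UMIs in the WT library, ILC2-like cells held 75.8% of Cd27 UMIs in the Zfp36_KO and 44.4% in the WT library, and myeloid-like cells 75.1% of Tnfrsf1a UMIs in the Zfp36_KO and 22.2% in the WT library.

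Tnfrsf9 encodes CD137, which is induced by activation on T cells and NK cells. It stood at 468 CPM (422 to 517) in Foxp3+ T-like WT cells, 13.7-fold (11.5 to 16.4) above other T-like WT cells. In Zfp36_KO and WT cells it stood at 31.7 and 37.7 CPM in the ILC1/NK-like class, at 27.7 and 32.1 CPM in NCR+ ILC3-like cells, and at 13.8 and 20.01 CPM in LTi-like cells. The WT values of the ILC and other T-like classes overlapped with their neighbours in the order of levels, and only myeloid-like cells, at 4.38 and 5.67 CPM, lay lower in both libraries. By CPM, NCR+ cells were 2.0-fold (1.15 to 3.59) above LTi-like cells in the Zfp36_KO library and 1.61-fold (1.04 to 2.54) above them in the WT library, where 1 NCR+ cell held 32.9% of the UMIs. Shares of cells thinned to 2000 UMIs did not separate the subsets. They were 2.83% of NCR+ and 2.38% of LTi-like Zfp36_KO cells, and 3.19% and 3.14% of WT cells. Unthinned WT shares ran the other way, at 6.60% of NCR+ and 7.84% of LTi-like cells. In the ILC1/NK-like class, 1 WT cell held 13 of the 38 UMIs.
ILC2-like cells were where Tnfrsf9 differed between the libraries. It stood at 9.80 CPM (69 UMIs) in Zfp36_KO and 20.8 CPM (91 UMIs) in WT ILC2-like cells, a log2 ratio of -1.09 (-1.56 to -0.62). The thinned share of cells was 1.3% (0.73 to 2.14) in Zfp36_KO and 3.44% (2.17 to 5.16) in WT cells. In B/plasma-like cells, the class with the lowest Tnfrsf9 levels, the share was 0.645% (0.016 to 3.54) in Zfp36_KO and 1.89% (0.229 to 6.65) in WT cells. The ILC2-like shares lay within those intervals and were not clear of background, whereas the ILC2-like CPM exceeded the 1.06 and 3.82 CPM of Zfp36_KO and WT B/plasma-like cells beyond counting error. Median depth in that class was 30967 and 37795 UMIs per cell, against 5775 and 6285 in ILC2-like cells. So few cells were positive that the level rests on 42 Zfp36_KO and 58 WT cells, of which 1 Zfp36_KO cell held 14 UMIs. Leaving out the cell with the most Tnfrsf9 UMIs in each library gave a log2 ratio of -1.28, and keeping only cells with an Xist UMI gave -0.89. Both parts of the class showed the lower level, in cells with a UMI of Il13 or Il5, the ILC2 effector cytokines, within counting error. Those had 17.2 CPM (11.6 to 24.6) in 249 Zfp36_KO and 31.9 CPM (23.3 to 42.5) in 185 WT cells, intervals that overlap. The Zfp36_KO value rests on 30 UMIs in 12 cells. The others had 7.36 CPM (5.24 to 10.1) and 15.4 CPM (11.2 to 20.6), which do not overlap. In the 120 Zfp36_KO and 71 WT ILC2-like cells with an Ncr1 UMI, Tnfrsf9 had 4 and 3 UMIs.

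Tnfrsf18, which encodes GITR, was present in all ILC and T-like classes, unlike B/plasma-like cells (5.7 CPM in Zfp36_KO, 4.9 CPM in WT). In Zfp36_KO and WT cells it stood at 201 and 221 CPM in ILC1/NK-like, 191 and 258 CPM in ILC2-like, 134 and 160.3 CPM in NCR+, 95.1 and 106 CPM in other ILC3-like and 58.8 and 69.7 CPM in LTi-like cells. Foxp3+ T-like WT cells had 717 CPM and other T-like WT cells 180.4 CPM, an interval that overlapped that of the NCR+ WT cells. Within ILC3-like cells the order was the same in both libraries, with NCR+ 2.27-fold (1.76 to 2.96) above LTi-like in Zfp36_KO and 2.30-fold (1.85 to 2.88) in WT cells. ILC2-like cells were 1.97-fold above the pooled ILC3-like cells in the Zfp36_KO library and 2.15-fold in the WT library.
The ratio between the libraries was below 0 in each of the 5 ILC classes, although it was 0.06 in LTi-like cells with classes from Leiden clusters and 0.0098 in other ILC3-like cells with all deposited barcodes. It was -0.43 (-0.55 to -0.32) in ILC2-like and -0.26 (-0.52 to -0.01) in NCR+ cells, and its interval spanned 0 in ILC1/NK-like, LTi-like and other ILC3-like cells. None reached 1.5-fold. A thinned UMI was found in 32.1% (29.4 to 34.8) of Zfp36_KO and 37.5% (33.7 to 41.4) of WT ILC2-like cells, intervals that overlap. In myeloid-like cells the CPM was 45.2 in Zfp36_KO and 38.9 in WT, whereas the thinned share was 7.08% and 12.8%, so no order was read there.

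Tnfrsf25, which encodes DR3, the receptor of TL1A, was an ILC3 gene in both libraries. It stood at 316 and 256 CPM in LTi-like cells, 289 and 244 CPM in other ILC3-like cells and 226 and 220.4 CPM in NCR+ cells of the Zfp36_KO and WT libraries. Neighbouring WT subset levels overlapped, and in the Zfp36_KO library NCR+ cells lay below the other subsets. Pooled ILC3-like cells exceeded ILC2-like cells 3.67-fold (3.31 to 4.07) in the Zfp36_KO library (275 against 75.0 CPM) and 2.43-fold (2.17 to 2.73) in the WT library (237 against 97.4 CPM). Foxp3+ and other T-like WT cells had 68.6 and 41.6 CPM.
Here the ratio between the libraries differed in direction between LTi-like and ILC2-like cells, each by less than 1.5-fold. The log2 ratio was 0.30 (0.11 to 0.50) in LTi-like cells and -0.38 (-0.56 to -0.19) in ILC2-like cells. The thinned shares ran the same way: 46.3% (41.2 to 51.5) of Zfp36_KO and 38.9% (33.7 to 44.2) of WT LTi-like cells, which overlap, and 11.8% (10.0 to 13.8) of Zfp36_KO and 17.7% (14.8 to 20.8) of WT ILC2-like cells, which do not. Against the median ratio of all genes measured in the class, 0.17 in LTi-like and 0.18 in ILC2-like cells, the differences were 0.13 and -0.56. The LTi-like interval held the median of its class. Intervals spanned 0 in NCR+ (log2 ratio 0.03), other ILC3-like (0.25), ILC1/NK-like (-0.28) and myeloid-like cells (0.28). In myeloid-like cells the gene lay mostly in cells with 2 or more C1q genes, a mark of macrophages, at 52.7 CPM in 157 Zfp36_KO and 51.1 CPM in 55 WT cells, against 8.13 CPM in the 218 other Zfp36_KO cells and 0 UMIs in the 34 other WT cells. ILC3 marker RNA in myeloid-like cells summed to 807 CPM in Zfp36_KO and 928 CPM in WT, with 8 of 8 markers found in both, and its part in these values was not tested.

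Cd27, a receptor of naive and memory lymphocytes, separated ILC2-like from ILC3-like cells. It stood at 153 CPM in Zfp36_KO and 160.3 CPM in WT ILC2-like cells, and at 6.43 and 7.25 CPM in ILC3-like cells. The difference between these classes was 23.9-fold (16.4 to 36.1) in the Zfp36_KO library and 22.1-fold (15.5 to 32.6) in the WT library. A thinned UMI was found in 25.7% of Zfp36_KO and 28.1% of WT ILC2-like cells and in 1.65% and 1.36% of ILC3-like cells. Among ILC2-like cells the level was lower in those with an Ncr1 UMI (56.2 CPM in Zfp36_KO, 75.2 CPM in WT) than in those without (164 and 170.4 CPM). Foxp3+ T-like WT cells had 208 CPM and ILC1/NK-like cells 50.6 and 73.3 CPM.
Between the libraries Cd27 did not move beyond counting error in ILC2-like cells, at -0.06 (-0.20 to 0.08). In myeloid-like cells it had 104 UMIs (13.8 CPM) in Zfp36_KO and 6 UMIs (4.86 CPM) in WT cells, a log2 ratio of 1.5 (0.33 to 2.98). The thinned shares there were 2.45% and 2.33%, and ILC2 marker RNA in the same cells summed to 235 CPM in Zfp36_KO and 85.9 CPM in WT, with 10 of 10 and 9 of 10 markers found. Whether RNA of ILC2 cells entered this value was not tested.

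Tnfrsf1a and Tnfrsf1b encode the receptors of TNF and lymphotoxin α. By CPM, Tnfrsf1a was highest in myeloid-like cells, with 98.6 CPM in Zfp36_KO and 102 CPM in WT cells. Before thinning, 72.3% and 62.9% of those cells had a UMI. Thinned shares were 16.6% (12.96 to 20.8) in Zfp36_KO and 18.6% (11.02 to 28.4) in WT myeloid-like cells. The ILC1/NK-like shares, 11.4% (6.89 to 17.4) and 8.06% (4.58 to 12.95), overlapped them. In the WT library T-like cells held 40.0% of the Tnfrsf1a UMIs and myeloid-like cells 22.2%. Tnfrsf1a stood at 59.5 and 53.5 CPM in ILC1/NK-like cells, at 39.9 and 37.2 CPM in NCR+ cells, and at 20.8 and 8.39 CPM in LTi-like cells. Other T-like WT cells had 36.9 CPM and Foxp3+ T-like WT cells 13.7 CPM. ILC2-like cells were nearly without it, with 7 UMIs in 1160 Zfp36_KO and 5 UMIs in 645 WT cells. Myeloid-like cells therefore exceeded ILC2-like cells 99.1-fold (47.9 to 247) in the Zfp36_KO library and 89.3-fold (37.3 to 280) in the WT library. NCR+ cells were 1.92-fold (1.22 to 3.08) above LTi-like cells in the Zfp36_KO library and 4.43-fold (2.45 to 8.68) above them in the WT library. The LTi-like class had 30 Zfp36_KO and 13 WT UMIs, under the minimum for a ratio between libraries. In the classes that passed, all intervals of the ratio spanned 0.
Tnfrsf1b stood between 35.5 and 59.5 CPM in the Zfp36_KO ILC and myeloid classes and between 34.8 and 70.4 CPM in the WT ILC and myeloid classes, with overlapping neighbours. ILC1/NK-like cells exceeded pooled ILC3-like cells 1.45-fold (1.03 to 2.01) in the Zfp36_KO and 1.67-fold (1.25 to 2.21) in the WT library. Foxp3+ T-like WT cells had 258 CPM and other T-like WT cells 98.8 CPM. No ratio between the libraries excluded 0 in any class, from -0.29 in other ILC3-like to 0.29 in myeloid-like cells. In ILC2-like cells, where Tnfrsf1a was nearly absent, Tnfrsf1b was found in 17.5% of Zfp36_KO and 19.5% of WT cells before thinning.

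Traf1, an adaptor that joins TRAF2 and cIAP proteins below several of these receptors and is itself a known NF-kB target, was lower in the Zfp36_KO library in every ILC and myeloid class. In Zfp36_KO and WT cells it stood at 385 and 425 CPM in ILC1/NK-like, 275 and 361 CPM in LTi-like, 259 and 384 CPM in other ILC3-like, 254 and 349.9 CPM in NCR+, 138 and 175 CPM in ILC2-like, and 109 and 171 CPM in myeloid-like cells. The log2 ratio was -0.14 (-0.36 to 0.07) in ILC1/NK-like cells, the 1 class of 6 whose interval spanned 0. It was -0.34 (-0.48 to -0.21) in ILC2-like, -0.40 (-0.59 to -0.21) in LTi-like, -0.46 (-0.64 to -0.28) in NCR+, -0.57 (-0.80 to -0.34) in other ILC3-like and -0.66 (-0.88 to -0.43) in myeloid-like cells. The last alone passed 1.5-fold, and it did not pass under 4 other settings. It was -0.28 under a gate that asked for 1 more marker, -0.51 without the cell with the most Traf1 UMIs in each library, -0.55 with classes from Leiden clusters, and -0.18 in cells with 2 or more C1q genes, a split made after the data were seen. In the WT library 1 myeloid-like cell held 31 of the 211 Traf1 UMIs.
Thinned shares of the pooled ILC3-like cells were 36.6% (33.6 to 39.7) in Zfp36_KO and 44.3% (41.0 to 47.7) in WT. The lower level was seen in ILC3-like cells with an Il22 UMI, a sign of cytokine production, at 290 CPM in 391 Zfp36_KO and 416 CPM in 312 WT cells, and in those without, at 242 and 327 CPM. In ILC2-like cells with an Il13 or Il5 UMI it stood at 143 CPM (126 to 162) in Zfp36_KO and 207 CPM (184 to 232) in WT cells, and in those without at 136 CPM (126 to 146) and 159 CPM (145 to 174), intervals that overlap.

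**Figure D3:**
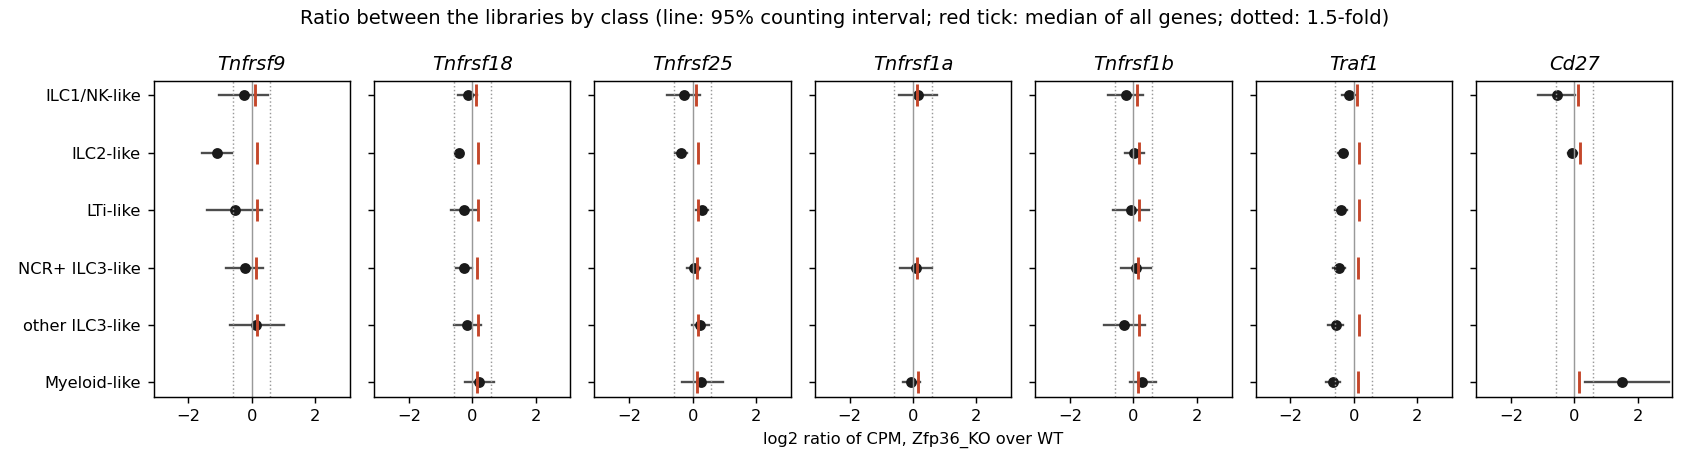
Log2 ratio of CPM, Zfp36_KO over WT, of each gene in each class with 50 or more UMIs (points), with 95% counting intervals (lines), the median of all genes measured in the class (red ticks) and 1.5-fold (dotted). Traf1 lies left of 0 in all 6 classes, Tnfrsf9 passes the lower limit in ILC2-like cells and Cd27 passes the upper one in myeloid-like cells.

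In ILC2-like cells 1 of 6 measured members was past 1.5-fold, the lower Tnfrsf9, where 19.3% of 9189 genes were past it in either direction, 16.1% higher and 3.23% lower. In myeloid-like cells 2 of 6 were, with 24.9% of all genes in either direction, 18.2% higher and 6.73% lower. None of the members measured was past 1.5-fold in ILC1/NK-like (7 measured; background 21.3%), pooled ILC3-like (7; 18.6%, with 14.5% higher and 4.12% lower), LTi-like (5; 23.8%), NCR+ (6; 18.7%) or other ILC3-like cells (5; 25.6%). Over the 6 separate classes 35 pairs of member and class were measured, of which 23 were below 0 and 12 above. The median of all genes was above 0 in each class, between 0.12 and 0.18, and 28 of the 35 pairs lay below the median of their class. Relative to that median, 7 pairs were lower and 1 was higher by 1.5-fold or more. The shares of all genes above are against 0 and not against the median. This count therefore has no share beside it and is not read as a trait of the members. The median over the measured members was -0.36 in ILC2-like, -0.17 in pooled ILC3-like, -0.24 in ILC1/NK-like and 0.25 in myeloid-like cells. Tnfrsf4 was measured in 0 of these classes and Traf1 in all 6, so the counts describe the measured pairs only.

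Tnfrsf4, Tnfrsf9, Tnfrsf18, Tnfrsf1b and Traf1 were chosen for their high levels in Foxp3+ T-like WT cells, where each alone had a UMI in 70.6% to 93.3% of cells, so that many cells with all 5 follow from the choice. All 5 had a UMI in 42.9% of the 119 cells and 4 of the 5 in 34.5%. Cd27, found in 68.1% of these cells, was not among the 5. The same 5 were found together in 1.43% of other T-like WT cells, in 1 of 645 ILC2-like WT cells, and in 0 cells of the other ILC and myeloid classes of both libraries. Median depth was 5203 UMIs per cell in the Foxp3+ class and 5098 in the other T-like class. Outside the T-like classes the near lack of cells with all 5 was also set by the choice. Tnfrsf4, 1 of the 5, had a UMI in only 10 of 375 Zfp36_KO and 3 of 89 WT myeloid-like cells. It was found in 13 of 645 WT ILC2-like cells. In ILC2-like cells 20.5% of Zfp36_KO and 11.8% of WT cells had none of the 5, at a median of 5775 and 6285 UMIs per cell.

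**Figure D4:**
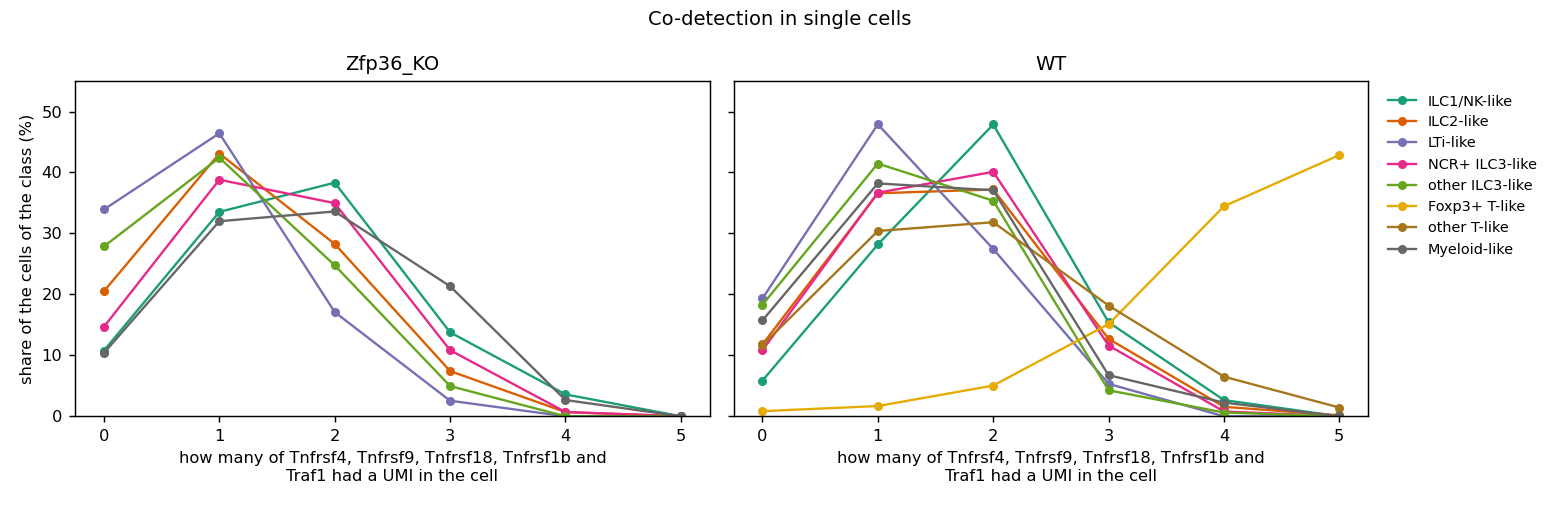
Share of the cells of each class (%) with a UMI of 0 to 5 of the genes Tnfrsf4, Tnfrsf9, Tnfrsf18, Tnfrsf1b and Traf1, Zfp36_KO left and WT right, unthinned. In the WT library 42.9% of Foxp3+ T-like cells had all 5, while most cells of the other classes had 1 or 2; T-like classes under 50 cells are not drawn for Zfp36_KO.

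The genes whose pattern was most like each member were ranked by Pearson's r of log2(CPM + 1) over 14 combinations of class and library (6 classes in Zfp36_KO, the same 6 and both T-like classes in WT). The points share libraries and depth, and r is a description. For Tnfrsf4 they were Izumo1r (0.963), Sdcbp2 (0.958) and Cd5 (0.937), which is a marker of the T gate. For Tnfrsf25 they were Xlr4b (0.966), Tusc3 (0.961) and Rbm33 (0.953). For Cd27 they were Ctla2a (0.942), Sytl2 (0.931) and Inpp4b (0.926), and for Tnfrsf1a Fam49a (0.940), Il4ra (0.932) and Baiap2 (0.928). Among the members, Tnfrsf4 and Tnfrsf1b (0.826), Tnfrsf9 and Tnfrsf18 (0.826) and Tnfrsf18 and Cd27 (0.801) were most alike, and Tnfrsf1a and Cd27 least (-0.468). For Tnfrsf9 the nearest were Tex30 (0.938), Sdf4 (0.905) and Rhof (0.901), and for Tnfrsf18 Phgdh (0.925), Zfp865 (0.924) and Prkcz (0.906). Those of Tnfrsf1b were Il10 (0.940), Ube2m (0.936) and Cdipt (0.929), and those of Traf1 were S100a10 (0.941), Tmem191c (0.912) and Fam96b (0.911).

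Of the 7 ligands of the members, only Tnf, Lta and Tnfsf9 had 50 UMIs over both libraries in any ILC class. Tnf stood at 123 CPM in Zfp36_KO and 209 CPM in WT NCR+ cells, and at 68.5 and 45.2 CPM in LTi-like cells. Lta, which encodes lymphotoxin α, stood at 113 and 83.9 CPM in LTi-like cells. Tnfsf9, the ligand of CD137, was 6.11-fold lower in Zfp36_KO than in WT myeloid-like cells (9.29 and 56.7 CPM, 70 UMIs each, log2 ratio -2.61, -3.11 to -2.11). The make-up of that class differed, with 2 or more C1q genes in 157 of 375 Zfp36_KO and 55 of 89 WT cells. Its part in this ratio was not tested. In NCR+ cells Tnfsf9 was 2.99-fold lower (7.07 and 21.1 CPM, 11 and 46 UMIs, log2 ratio -1.58, -2.68 to -0.61). Of the ligands measured, 1 of 1 was lower by 1.5-fold or more in ILC1/NK-like cells, beside 273 of 5141 genes. The count was 1 of 2 in ILC2-like cells (297 of 9189 genes) and 1 of 3 in pooled ILC3-like cells (391 of 9480). It was 2 of 3 in NCR+ (334 of 7565), 1 of 2 in other ILC3-like (318 of 6057) and 2 of 2 in myeloid-like cells (624 of 9278). In LTi-like cells 1 of 2 was higher, as were 1325 of 7193 genes. With 1 to 3 ligands per class, these counts cannot be read as a rate. The ligands Tnfsf4, Tnfsf15, Tnfsf18 and Cd70 had at most 15 UMIs in each class and library.
Among other receptors of the family, Tnfrsf13b, which encodes TACI, was 3.24-fold higher in Zfp36_KO ILC3-like cells (14.7 CPM, against 4.53 CPM in WT) and 2.50-fold higher in LTi-like cells. Tnfrsf10b, a receptor of TRAIL, was 2.02-fold lower in ILC2-like cells (8.38 CPM in Zfp36_KO, 16.9 CPM in WT). Of 17 such receptors, 5 were measured in ILC2-like cells (0 higher, 1 lower) and 5 in pooled ILC3-like cells (2 higher, 1 lower). Of 30 adaptor and NF-kB signalling genes all 30 were measured in both, with 4 higher and 0 lower in ILC2-like cells and 5 higher and 1 lower in ILC3-like cells, beside 16.1% higher and 3.23% lower of all genes in ILC2-like cells and 14.5% and 4.12% in ILC3-like cells. Ripk1, the kinase recruited to TNFR1, was 2.38-fold higher in Zfp36_KO LTi-like cells (62.9 CPM, against 26.5 CPM in WT; log2 ratio 1.25, 0.70 to 1.82). The median of that list was 0.05 in ILC2-like and 0.10 in ILC3-like cells, beside 0.18 and 0.16 for all genes measured.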

How the data were processed

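Per the file headers and the submitters' processing notes, the authors ran Cell Ranger 3.1.0 on mm10, and the deposited values are raw UMI counts per gene and barcode, not normalized. Barcodes with at least 500 genes and at most 10% mitochondrial UMIs were kept, and Scrublet doublets were removed (5 in Zfp36_KO, 37 in WT). Scrublet marked only 0.15% of Zfp36_KO barcodes and so may have missed doublets there; cells with markers of more than 1 lineage were set aside as mixed.

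Classes came from markers with a UMI: at least 3 of 6 for T cells, 4 of 18 for myeloid, 3 of 7 for B/plasma, 3 of 10 for ILC2, 2 of 6 for ILC3 and 3 of 11 for ILC1/NK. LTi-like and NCR+ cells were ILC3-like cells with more markers of that subset. Markers found across classes were left out; these minimums were set after the marker counts per cell and a cluster table, which also showed mean Tnfrsf4 and Tnfrsf9, had been seen. The members and gene lists were chosen with earlier results of these data known. UMIs were summed per class; a ratio needed 50 UMIs over both libraries and 50 cells in each. A ratio of 1.5-fold was the threshold for a count; other genes of the pathway lists were named past 2-fold with an interval that excluded 0. Intervals were exact (Poisson, binomial, Clopper-Pearson), at 95%. Intervals and levels cover UMIs, with no replicate. Software was scanpy 1.11.5, scipy 1.17.1 and numpy 2.4.6; 3′ UTRs came from GENCODE M21. The interval was tested on simulated independent Poisson counts only, which do not cover UMIs clumped in single cells.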

Additional observations from a re-analysis of the deposited data

How the results depend on the processing

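Of the recomputed log2 ratios of members, 437 stayed within the counting interval and 9 moved. The 437 include 42 from a minimum of 20 UMIs and 26 from a minimum of 200 UMIs. Those 2 settings change which genes are measured and not a ratio, so these could not move. Of 42 ratios, 19 changed sign under at least 1 setting, of which 0 were past 1.5-fold and 0 had an interval that excluded 0 as reported. With 1 library per genotype no replicate could be left out. No paired analysis was possible because each genotype had 1 pooled library. The count of member and class pairs past 1.5-fold (1 higher, 2 lower) became 2 higher with classes from Leiden clusters, 7 lower relative to the median gene, and 5 lower without ribosomal and mitochondrial genes. No share of all genes by direction is given for these settings, so the changed counts are not set against a background. It became 3 higher with a minimum of 20 UMIs, and 0 higher and 1 lower with a minimum of 200 UMIs. Genes past 1.5-fold, at a minimum of 20 UMIs, numbered 2102 in ILC1/NK-like, 2160 in NCR+ and 2600 in other ILC3-like cells. At a minimum of 200 UMIs they numbered 207 in ILC1/NK-like, 995 in ILC2-like, 975 in ILC3-like, 549 in LTi-like, 458 in NCR+, 379 in other ILC3-like and 1074 in myeloid-like cells, since fewer genes were tested. For the other settings the cause was not tested. The cluster classes took a cluster's most common gated class where it made up enough of the cells, a limit added after the clusters were seen, and left no other ILC3-like class. The splits by Ncr1, C1q, Il22, Il13 or Il5, Cd8 and Ctla4 were also chosen after the data were seen. Myeloid-like cells with fewer than 2 C1q genes gave no ratio, with 34 WT cells. Thinning to 1000 or 3000 UMIs moved shares of cells, as it changes the depth at which they are read.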
